A study of Mus musculus with 4 samples.

Results

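Myeloid C-type lectin receptors are surface proteins with which macrophages, monocytes and dendritic cells read sugars and glycolipids of fungi, mycobacteria and damaged cells. The 10 genes described here were chosen by name from the deposited table of 34745 mouse genes: Clec4a1, Clec4a2, Clec4a3, Clec4d, Clec4e, Clec4n, Clec5a, Clec7a, Clec10a and Clec12a. All 10 were in the table, and all 10 had enough counts to be among the 12590 genes tested.

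RNA was measured in bone marrow derived macrophages (BMMs), the precursors from which RANKL, the osteoclast-inducing cytokine, raises bone-resorbing osteoclasts. The cells came from wild-type male C57BL/6 mice aged 8 weeks, were starved of FBS for 12 h, and then received complete media with RANKL at 100 ng/mL for 24 h. Together with RANKL, the cells of 2 libraries were given dimethyl itaconate (DI), a membrane-permeable ester of the macrophage metabolite itaconate (RANKL+DI), and those of 2 were given the vehicle DMSO (RANKL+DMSO). The labels put the dose of DI at 20 mM and the paper at 20 μM, and there was no group without RANKL. Neither source says whether the libraries of a group came from separate mice, so that p-values measure only the spread between these libraries, which may be technical. The libraries held 16085692 to 19403480 counts.

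Many of these receptors signal through the tyrosine kinase Syk, either by a motif in their own tail or by a partner protein with an ITAM, a short activating tyrosine motif, and Syk then drives NF-κB through the adaptor CARD9. Other members carry an ITIM, the inhibitory counterpart, which recruits phosphatases such as SHP-1. Osteoclast precursors use the same ITAM partners, FcRγ and DAP12, as the co-stimulatory arm of RANKL signalling.

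With DI, the transcripts of Clec4n, Clec7a and Clec4d were higher than with DMSO and those of Clec4e and Clec12a were lower, while 5 members did not pass the test. The largest change was that of Clec4n, the gene of Dectin-2, at 2.79-fold higher. Of the 10 members, 5 had an adjusted p under 0.05, against 14.8% of all tested genes. By direction, 3 of the 10 were higher (7.14% of all tested genes) and 2 were lower (7.7%). The median log2 fold change was -0.0575 over the members and 0.00117 over all tested genes. When libraries were scaled by their size only, the split over all genes moved from 899 higher and 969 lower to 549 and 1930, and that of the members from 3 and 2 to 3 and 3. All tests are edgeR's quasi-likelihood test with Benjamini-Hochberg adjustment over the tested genes. Fewer cells that carry a transcript and less of it per cell cannot be told apart in such bulk libraries.

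The members lie in a few places of the genome (GRCm38). On chromosome 6, 6 of them stand within 368.0 kb, in the order Clec4a1, Clec4a3, Clec4a2, Clec4n, Clec4d and Clec4e, with the relatives Clec4a4, Clec4b1 and Clec4b2 between them. Clec12a and Clec7a lie farther along the same chromosome, 96.3 kb apart. Clec5a is also on chromosome 6, and Clec10a is on chromosome 11. In the GENCODE M21 annotation no exon of a member overlaps an exon of another gene on either strand.

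To show what lies in front of the genes that changed, the 250 bases before the start site are given for the 4 called members with a promoter in the RefSeq table (GRCm38.p6). The table holds 8 of the 10 members and has no entry for Clec4n and Clec10a. Capitals mark every match, on either strand, to 7 motifs: the PU.1 core GAGGAA, the C/EBP site TTNNGCAA, the AP-1 site TGANTCA, the antioxidant response element TGACNNNGC that NRF2 binds, the TCACGTG E-box of MiT/TFE factors, the interferon-stimulated response element GAAANNGAAA, and the NF-κB consensus. The sequences run 5′ to 3′ on the strand of each gene. They are chr6:123261857-123262106 on the plus strand for Clec4d, chr6:123289872-123290121 on the minus strand for Clec4e, chr6:129472780-129473029 on the minus strand for Clec7a, and chr6:129349994-129350243 on the plus strand for Clec12a.
Clec4d: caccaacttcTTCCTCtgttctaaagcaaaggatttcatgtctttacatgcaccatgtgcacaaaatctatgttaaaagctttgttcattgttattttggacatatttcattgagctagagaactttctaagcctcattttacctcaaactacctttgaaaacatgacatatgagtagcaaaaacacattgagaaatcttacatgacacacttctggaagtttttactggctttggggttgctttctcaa
Clec4e: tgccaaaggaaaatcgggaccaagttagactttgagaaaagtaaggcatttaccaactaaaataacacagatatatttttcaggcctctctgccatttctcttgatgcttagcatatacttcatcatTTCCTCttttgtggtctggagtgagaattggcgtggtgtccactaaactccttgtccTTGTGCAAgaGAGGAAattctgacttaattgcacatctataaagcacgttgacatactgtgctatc
Clec7a: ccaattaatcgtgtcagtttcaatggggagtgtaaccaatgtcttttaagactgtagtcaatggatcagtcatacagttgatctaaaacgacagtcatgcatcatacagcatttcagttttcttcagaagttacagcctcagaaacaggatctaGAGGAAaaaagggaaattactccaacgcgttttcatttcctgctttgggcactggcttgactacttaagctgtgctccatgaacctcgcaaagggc
Clec12a: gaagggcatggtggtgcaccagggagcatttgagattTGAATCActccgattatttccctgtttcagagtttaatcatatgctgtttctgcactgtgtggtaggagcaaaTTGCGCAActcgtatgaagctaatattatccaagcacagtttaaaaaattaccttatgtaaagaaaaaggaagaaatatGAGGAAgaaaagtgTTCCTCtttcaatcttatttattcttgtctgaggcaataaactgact

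The PU.1 core, the binding letters of a factor that all macrophages use, was found in each of these 4 windows and in 6 of the 8 members with an entry, against 23.3% of all 32851 windows of the table. Clec4e and Clec12a, the members that were lower with DI, also held a C/EBP site, at 66 and 140 bases before the start, which 9.56% of all windows do. Clec12a further held an AP-1 site, found in 6.75% of all windows, at 213 bases before the start. None of the 8 windows searched held the antioxidant response element (10.2% of all windows) or the NF-κB consensus (7.25%). Nor did any of them hold the E-box (3.13%) or the interferon-stimulated response element (2.98%). These are matches of letters and not measured binding. For Clec7a and Clec4a3 the RefSeq table holds 2 starts each, and only the one nearest the deposited gene start was searched. The start used lies 7553 bases inside the deposited gene for Clec12a and 16262 bases inside it for Clec4a2. Clec4a1 and Clec5a were the other members with a PU.1 core, and Clec4a2 and Clec4a3 matched none of the motifs.

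Clec4n, ENSMUSG00000023349, encodes Dectin-2, a receptor for mannans of fungal walls that signals through FcRγ. It lies on the plus strand of chromosome 6 from 123229843 to 123247021. Its counts were 2060 and 2117 in the RANKL+DI libraries and 831 and 647 in the RANKL+DMSO libraries. As CPM, counts relative to the TMM-scaled library size, this was 120 and 113 CPM with DI and 44.6 and 38.8 CPM with DMSO, so that both DI libraries stood far above both controls. The mean rose from 41.7 ± 4.08 to 116 ± 5.03 CPM (SD, n = 2 each), or 1.48 ± 0.0823 (SE) on the log2 scale, with a 95% interval of 1.28 to 1.68 and an adjusted p of 5.67e-04 (edgeR). It was the only member to be called with a log2 fold change over 1, as 0.643% of all tested genes were. A larger log2 fold change was seen in 59 tested genes, of which 34 were called.

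Clec7a, ENSMUSG00000079293, encodes Dectin-1, the receptor for β-glucans, which carries its own Syk-binding motif in the cytoplasmic tail. It lies on the minus strand of chromosome 6 from 129461591 to 129472779. GENCODE M21 lists it as a polymorphic pseudogene, with transcripts that it lists as protein coding. Its level was 271 and 259 CPM with DI and 174 and 169 CPM with DMSO, and the groups did not overlap. On 4659 and 4863 counts against 3243 and 2815, the mean rose from 171 ± 3.60 to 265 ± 8.54 CPM (SD, n = 2 each), or 0.63 ± 0.0442 (SE) on the log2 scale, with an adjusted p of 0.00104 (edgeR).

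Clec4d and Clec4e are neighbours whose 3′ ends face each other across 6.5 kb, and they moved in opposite directions. Clec4d (ENSMUSG00000030144, chromosome 6 from 123262111 to 123275265, plus strand) encodes MCL, a receptor for the mycobacterial glycolipid trehalose dimycolate that pairs with Mincle. It was the most abundant member in every library, also when set per length, with 823 and 894 CPM under DI and 599 and 596 CPM under DMSO. The mean rose from 597 ± 1.71 to 858 ± 49.9 CPM (SD, n = 2 each), or 0.52 ± 0.0471 (SE) on the log2 scale, with an adjusted p of 0.00224 (edgeR). The RANKL+DI libraries lay further from each other than the controls did, and both stood above them.

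Clec4e (ENSMUSG00000030142, chromosome 6 from 123281789 to 123289870, minus strand) encodes Mincle itself, which signals through FcRγ. Its level was 20.9 and 21.9 CPM with DI and 27.9 and 33.1 CPM with DMSO, so that both DI libraries were lower. The mean fell from 30.5 ± 3.65 to 21.4 ± 0.710 CPM (SD, n = 2 each), or -0.51 ± 0.105 (SE) on the log2 scale, with an adjusted p of 0.0277 (edgeR). This call was not stable. Leaving out RANKL+DI replicate 1, RANKL+DI replicate 2 or RANKL+DMSO replicate 2 gave adjusted p-values of 0.0695, 0.0510 and 0.0902 (edgeR) and log2 fold changes of -0.47, -0.54 and -0.38. Over all 15 alternatives the adjusted p ranged from 0.00591 to 0.0902.

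Because the genes moved apart, the ratio of their counts within a library changed more than either gene did. There were 39.4 and 40.8 counts of Clec4d for each count of Clec4e with DI, and 21.5 and 18.0 with DMSO. The groups did not overlap, though with 2 libraries against 2 the smallest 2-sided p of an exact permutation test is 0.333, so that this test cannot reach 0.05 for the ratio.

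Clec12a (ENSMUSG00000053063, chromosome 6 from 129342691 to 129365303, plus strand) encodes the inhibitory receptor MICL, which carries an ITIM and recognises uric acid crystals of dead cells. It stood at 340 and 334 CPM with DI and at 465 and 453 CPM with DMSO, with no overlap. The mean fell from 459 ± 8.36 to 337 ± 3.88 CPM (SD, n = 2 each), or -0.45 ± 0.0367 (SE) on the log2 scale, with an adjusted p of 0.00178 (edgeR). Set against Clec7a, a Syk-coupled receptor encoded nearby, there were 0.799 and 0.776 counts of Clec7a for each of Clec12a with DI and 0.374 and 0.373 with DMSO. For Clec4n the same ratio was 0.353 and 0.338 with DI and 0.0959 and 0.0857 with DMSO.

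**Figure D1:**
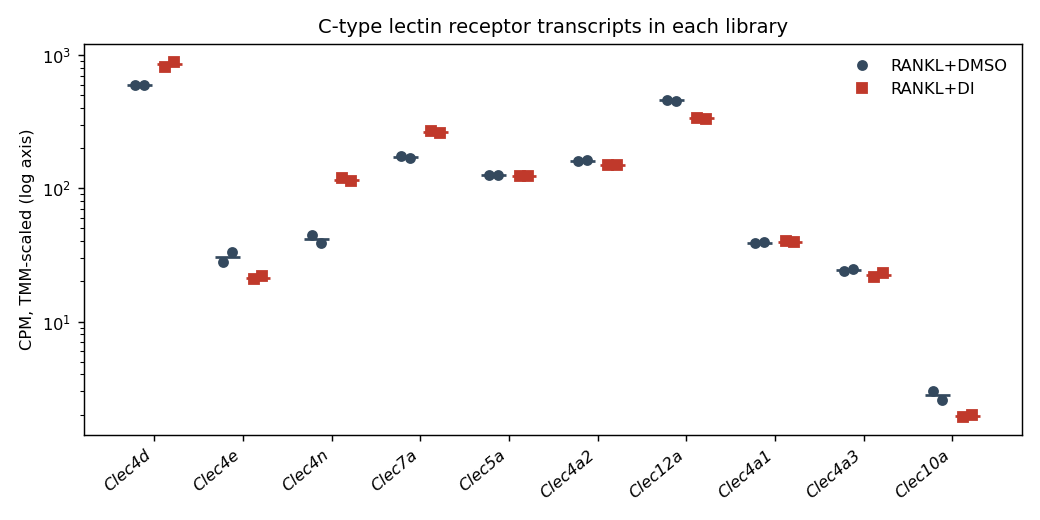
CPM of each of the 10 receptors in each library, on a log axis, with DMSO libraries as circles, DI libraries as squares and group means as bars (n = 2 each). The groups stand clear of each other for Clec4n (120 and 113 against 44.6 and 38.8 CPM), while those of Clec5a and Clec4a1 lie level.

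The other members changed by less than could be called. Clec5a (ENSMUSG00000029915, chromosome 6 from 40574894 to 40585821, minus strand), the gene of the DAP12-coupled receptor MDL-1, was at 123 and 124 CPM with DI and 125 and 126 CPM with DMSO. Its log2 fold change was -0.02 with a 95% interval of -0.12 to 0.09 (adjusted p = 0.832, edgeR). Both DI libraries were the lower ones, by a small margin.

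Clec4a2 (ENSMUSG00000030148, chromosome 6 from 123106428 to 123143999, plus strand) encodes DCIR, an inhibitory receptor with an ITIM like that of MICL. It was at 151 and 150 CPM with DI and at 160 and 162 CPM with DMSO, a log2 fold change of -0.10 with a 95% interval of -0.20 to 4e-04 (adjusted p = 0.168, edgeR). Part of its longest transcript, 436 bases, is 96.3% identical to Clec4b1, which had at most 9 counts in a library.

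Clec4a3 and Clec4a1, relatives of DCIR in the same cluster, were lower in level than DCIR, also per length. Clec4a3 (ENSMUSG00000043832, chromosome 6 from 122952515 to 122969875) had 21.6 and 23.0 CPM with DI and 23.8 and 24.7 CPM with DMSO, a log2 fold change of -0.12 (95% interval -0.32 to 0.09, adjusted p = 0.410, edgeR). Clec4a1 (ENSMUSG00000049037, chromosome 6 from 122921848 to 122934619) had 40.2 and 39.5 CPM with DI and 38.8 and 39.5 CPM with DMSO, a log2 fold change of 0.02 (95% interval -0.13 to 0.18, adjusted p = 0.837, edgeR). It was the only member whose groups overlapped. Its sign turned when libraries were scaled by their size only.

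Clec10a (ENSMUSG00000000318, chromosome 11 from 70156197 to 70170834) encodes MGL1, an endocytic receptor for galactose-type sugars. It was the least abundant member, also when set per length, with 33 and 37 counts under DI and 56 and 43 under DMSO, or 1.92 and 1.97 CPM against 3 and 2.58 CPM. Its log2 fold change of -0.52 was as large as that of Clec4e, but its 95% interval reached from -1.07 to 0.02 (adjusted p = 0.181, edgeR). A stretch of 735 bases of its longest transcript is 96.1% identical to Mgl2, which had at most 3 counts in a library.

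**Figure D2:**
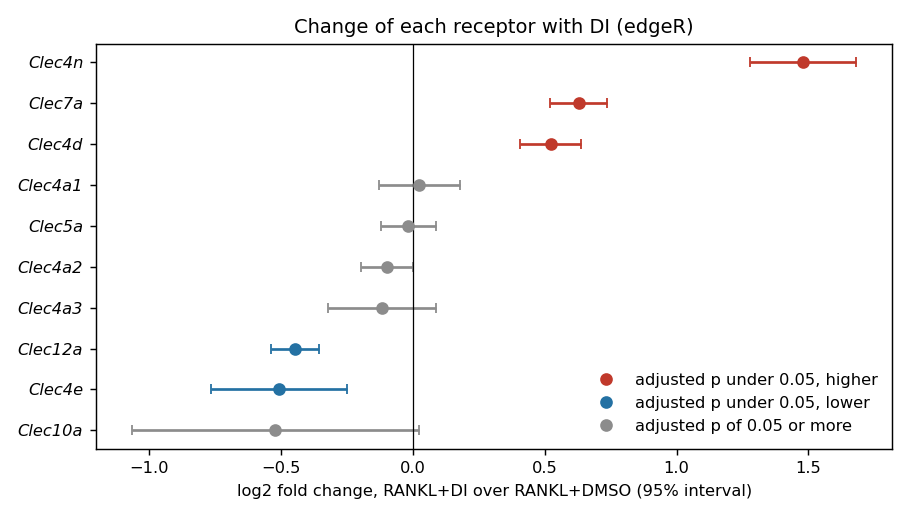
Log2 fold change of each receptor, RANKL+DI over RANKL+DMSO, with its 95% interval, from edgeR's fit on all 12590 tested genes (n = 2 each). Clec4n (1.48), Clec7a (0.63) and Clec4d (0.52) lie to the right of 0, Clec12a (-0.45) and Clec4e (-0.51) to the left, and the wide interval of Clec10a reaches 0.

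In all, 9 of the 10 members had groups that did not overlap, 3 with DI above and 6 with DI below, where 58.6% of all tested genes did not overlap. Grouped by role, the 5 receptors that couple to Syk or to an ITAM partner (Clec4d, Clec4e, Clec4n, Clec5a and Clec7a) held all 3 genes that were higher, with 1 lower and 1 not called, beside the 7.14% and 7.7% of all tested genes that were called higher and lower. Of the 2 receptors with an ITIM, Clec12a was lower and Clec4a2 was not called. Neither DCIR relative was called. The groups hold few genes, and no difference between roles was tested.

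Levels of different genes can be compared only per length, and the deposited FPKM values are not suited to this. The length behind them equalled, within 1 base for all 10 members, the sum of all distinct exons of a gene, in which overlapping exons of different transcripts are counted repeatedly. For Clec4e this length was 13196 bases, 2.66 times the 4965 bases of its merged exons, and longer than the gene. The ratio was between 1 and 2.01 for the other members. Levels were therefore set on merged exons as CPM per kilobase, a scale that leaves the differences between groups as they were.

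On this scale Clec4d stood at 537 ± 31.4 with DI and 372 ± 1.21 with DMSO (SD, n = 2 each), well over every other member. With DMSO, Clec12a followed at 82.8 ± 1.54, then Clec7a at 64.8 ± 1.39, Clec4a2 at 54.9 ± 0.303, Clec5a at 32.5 ± 0.171 and Clec4n at 29.3 ± 2.87. The last pair differed by little more than the spread of Clec4n, with Clec4n at 31.3 and 27.2 in the 2 libraries and Clec5a at 32.3 and 32.6. With DI the order was Clec7a at 101 ± 3.20, Clec4n at 81.9 ± 3.51, Clec12a at 60.9 ± 0.683, Clec4a2 at 51.4 ± 0.387 and Clec5a at 32.2 ± 0.121. Clec4n thus moved from rank 6 to rank 3 of the 10, and Clec12a from rank 2 to rank 4. Clec4a1, Clec4a3, Clec4e and Clec10a kept ranks 7, 8, 9 and 10 in both groups, with Clec4e at 4.31 ± 0.144 and 6.12 ± 0.730.

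The receptors' summed level was 1910 and 1960 CPM with DI and 1660 and 1640 CPM with DMSO. Clec4d made up 43.0% and 45.6% of the members' counts in the DI libraries and 36.0% and 36.3% in the controls. The share of Clec12a was 17.8% and 17% with DI and 28.0% and 27.6% with DMSO, and that of Clec4n 6.27% and 5.76% against 2.68% and 2.36%. Replicates of a group differed by at most a few percentage points in each of these shares, less than the groups did.

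**Figure D3:**
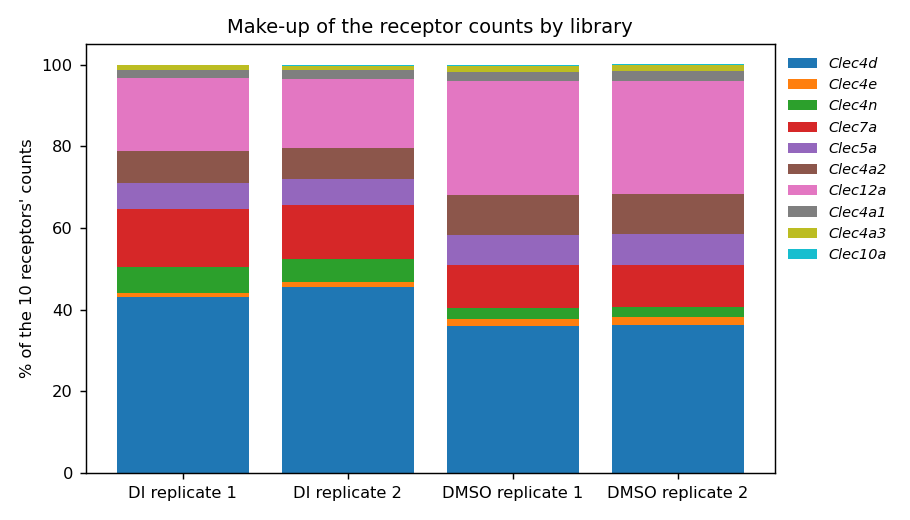
Share of each receptor in the summed counts of the 10, in percent, with a bar per library. Clec4d is the largest part of every bar (43.0% and 45.6% with DI), the part of Clec12a is wider with DMSO (28.0% and 27.6%), and that of Clec4n is wider with DI.

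Nearby genes did not move as a block. From Clec4a1 to Clec4e, the first genes of the cluster (Clec4a1, Clec4a3, Clec4a2) were not called, Clec4n and Clec4d were higher, and Clec4e was lower. Between them lies Clec4a4, the gene of the DCIR relative DCIR2, with 9 and 6 counts under DI and 36 and 20 under DMSO. It changed by -1.90 ± 0.447 (SE) on the log2 scale, with an adjusted p of 0.0414 (edgeR), a call that was lost when any single library was left out (0.00195 to 0.176 over 14 alternatives). Clec4b1, with 1 and 7 counts under DI and 9 and 0 under DMSO, and Clec4b2, with 1 count in all, were too low to test. Between Clec12a and Clec7a, the genes Clec12b, Clec1b, Clec9a and Clec1a had at most 8 counts in a library and were not tested.

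Similarity of the coding sequences was set beside the responses. Identity was the number of identical aligned bases over the length of the longer coding sequence, so that a difference in length lowers it. Clec4d and Clec4e share 57.7% by this measure and changed in opposite directions. Clec4d and Clec4n share 57.1% and both rose. Of the relatives compared, those closest to Clec4n were Clec4b1, at 73.0%, and Clec4b2, at 72.9%, and both were hardly detected. Among members, Clec4a1 and Clec4a3 were the closest pair by this measure, at 69.8%, followed by Clec4a2 and Clec4a3 at 68.6%. Clec4a2 has the longest coding sequence of these, 786 bases against 735 and 711, so this order depends on the length used. None of these genes was called. These are single pairs, with no test over them.

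**Figure D4:**
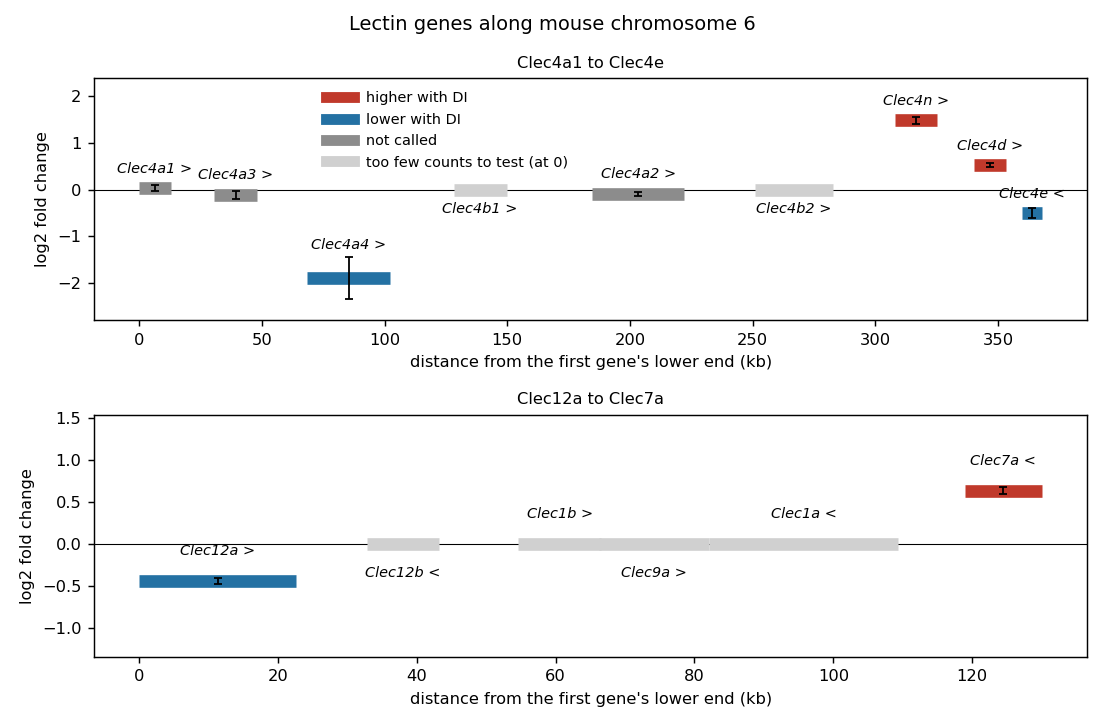
Genes from Clec4a1 to Clec4e (top) and from Clec12a to Clec7a (bottom) along chromosome 6, each drawn to scale by its distance in kb from the first gene's lower end, at the height of its log2 fold change with standard error. Arrows in the labels give the strand, and genes too low to test are drawn in light grey at 0. Clec4d (0.52) and Clec4e (-0.51) stand on opposite sides of 0 within 6.5 kb.

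Beyond the 10 members, 48 other genes with C-type lectin domains were listed, of which 15 were tested and 19 had no count in any library. Of the 15, 3 were higher with DI, 2 were lower and 10 were not called, where 14.8% of all tested genes were called, and the 5 calls became 1 or 2 with any library left out. Their median log2 fold change was -0.0662. The largest change with a stable call was that of Cd207, which encodes langerin, a mannose-binding receptor best known from Langerhans cells. Its counts were 94 and 111 under DI, against 274 and 271 under DMSO, or -1.44 ± 0.124 (SE) on the log2 scale, with an adjusted p of 0.00195 (edgeR). The call held in all 15 alternatives. Clec4a4, given above, was the other lower gene.

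Cd302, Colec12 and Cd93 were higher, by 0.35, 0.34 and 0.17 on the log2 scale (adjusted p = 0.0156, 0.0185 and 0.0251, edgeR). Colec12 encodes a scavenger receptor with a lectin domain. Cd302 and Colec12 were called in 11 of 15 alternatives each and Cd93 in 6, with 1, 2 and 0 calls when the 4 libraries were left out in turn. Mrc1, the gene of the macrophage mannose receptor, was at 236 CPM with DI and 219 CPM with DMSO (log2 fold change 0.11, adjusted p = 0.129, edgeR).

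The genes of the signalling parts on which the receptors depend were listed as well. Of 27 tested adaptors, kinases and phosphatases, 3 were higher with DI, 4 were lower and 20 were not called, where 14.8% of all tested genes were called. Their median log2 fold change was 0.0523. Fcer1g, the gene of the FcRγ chain that Clec4d, Clec4e and Clec4n use, had 541 CPM with DI and 441 CPM with DMSO on average, or 0.29 ± 0.0668 (SE) on the log2 scale, with an adjusted p of 0.0368 (edgeR). Tyrobp, which encodes DAP12, the partner of Clec5a, had 410 and 357 CPM and was not called (log2 fold change 0.20, adjusted p = 0.22).

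Further down the route, Syk (log2 fold change -0.04, adjusted p = 0.541), Card9 (0.06, adjusted p = 0.616) and Bcl10 (0.06, adjusted p = 0.598) did not pass the test (edgeR). Malt1, which completes the CARD9 complex with Bcl10, was lower by a log2 fold change of -0.22 (adjusted p = 0.0373, edgeR). Ptpn6, the gene of the phosphatase SHP-1 that ITIMs recruit, was at -0.06 (adjusted p = 0.519). The kinase gene Src stood at -0.55 (adjusted p = 0.00813, edgeR) and the adaptor gene Lcp2 at -0.29 (adjusted p = 0.0226, edgeR).

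Pik3cg, the gene of a PI3-kinase subunit, was at 0.19 (adjusted p = 0.0365, edgeR). The calls of Fcer1g, Malt1, Pik3cg and Lcp2 were sensitive. They held in 9, 8, 5 and 9 of 15 alternatives, against 15 for Src, and the whole count of 7 went down to 2 without RANKL+DI replicate 2 or without RANKL+DMSO replicate 2.

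**Figure D5:**
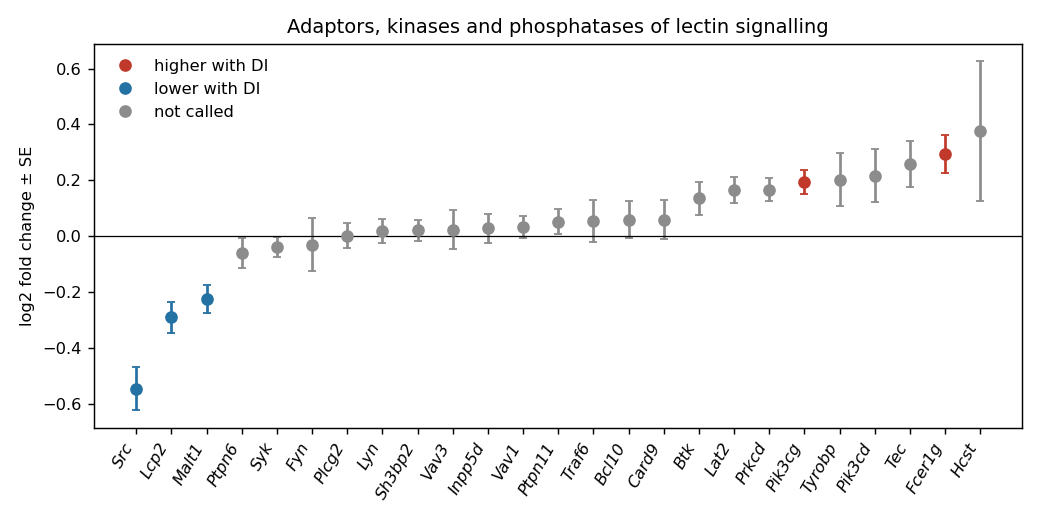
Log2 fold change with standard error of 25 of the 27 tested genes for adaptors, kinases and phosphatases of lectin signalling, RANKL+DI over RANKL+DMSO, in ascending order. Src (-0.55) stands at the lower end, Fcer1g (0.29) is among the called genes above 0, and Syk, Card9 and Bcl10 lie close to 0.

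Of 17 listed genes that such receptors are known to induce through Syk and CARD9, 10 had enough counts to test. Of these, 1 was called, where 14.8% of all tested genes were. Nfkbiz, which encodes the NF-κB cofactor IκBζ, fell from 255 and 209 counts under DMSO to 142 and 153 under DI, a log2 fold change of -0.68 (adjusted p = 0.0146, edgeR). Tnf, at 437 and 436 counts under DI, against 453 and 402 under DMSO, showed a log2 fold change of 0.01 (95% interval -0.20 to 0.22, adjusted p = 0.97, edgeR). Il12b, Csf2 and Csf3 had no count in any library, and Il1b, Il6, Il23a and Egr3 had at most 5.

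The cells' identity was checked with marker genes. The 7 macrophage markers measured were found in every library. With DI, 4 of them were higher and 2, Cd14 and Fcgr1, were lower, where 7.14% and 7.7% of all tested genes were. The markers' summed level was 26900 and 27800 CPM in the DI libraries and 22100 and 21300 CPM in the controls, most of it Lyz2. Of 8 tested osteoclast markers, 5 were lower with DI and 2 higher, where 7.7% and 7.14% of all tested genes were. The lower ones were Mmp9 (mean 28.5 CPM with DI and 88.5 CPM with DMSO), Acp5 (21.2 and 41 CPM), Ocstamp, Ctsk and Nfatc1. All 10 summed to 714 to 730 CPM with DI and 740 to 764 CPM with DMSO. Most of that sum was Atp6v0d2 (mean 509 and 422 CPM), which like Itgb3 was higher with DI. Calcr, a marker of mature osteoclasts, had no count in any library. Neutrophils and monocytes also carry many of these receptors. The 10 neutrophil markers summed to 10.7 to 11.2 CPM with DI and 9.39 to 11.0 CPM with DMSO, with Ly6g and Retnlg at 0, and the 6 monocyte markers to 28.0 to 32.4 CPM with DI and 40.4 to 45.4 CPM with DMSO, mainly through Cx3cr1, which was lower with DI (log2 fold change -0.57, adjusted p = 0.0164, edgeR). Of 8 dendritic cell markers, Siglech was at 0 and Flt3 had at most 1 count in a library, while Itgax, which BMMs share, gave most of the sum of 452 to 492 CPM with DI and 412 to 423 CPM with DMSO. Markers of B cells, T and NK cells, mast cells and basophils, and erythroid cells summed to at most 0.84 CPM in any library, and those of stromal cells to 37.4 to 39.0 CPM with DI and 40.4 to 45.3 CPM with DMSO. The part of the macrophage, monocyte and osteoclast markers in the changes of the receptors was not tested.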

How the data were processed

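RNA-sequencing of 2 RANKL+DI and 2 RANKL+DMSO libraries of BMMs was analysed, with samples grouped by their titles. For each gene the authors deposited the unnormalized read count of every library, and an FPKM value that follows from the count, the library total and a length. The genome was GRCm38 per the labels, and the aligner, counting program and annotation release are not given in the sources used here. Of 34344 identifiers also in GENCODE M21, 80.9% had the same start and end. A second deposited table repeats the values with annotation and was not used. The messenger RNA libraries were read from both ends, and whether counting used strand is not stated.

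The counts went into edgeR 4.0.16 under R 4.3.3 (TMM, default filter on low counts, quasi-likelihood test with treatment as its only term, Benjamini-Hochberg adjustment over 12590 genes). A gene was called at an adjusted p under 0.05. Standard errors follow from the fold change and the F statistic, and 95% intervals from the test's degrees of freedom, of which 2 were residual. Depth was 16085692 to 19403480 counts per library. With TMM factors of 0.963 to 1.04, 3 counts correspond to 0.160 to 0.180 CPM, for counting error only. Libraries of a group differed by more than sampling noise (chi-square per degree of freedom 7.57 with DI and 7.74 with DMSO).

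The members and lists were chosen with earlier results of these data known. Itgam and Rubcn were not analysed here, and some genes of the signalling list are counted but not reported here singly. Named genes are all members, fixed signalling genes and relatives, and up to 5 called genes of each list with the largest change. Pik3cg, Tnf, the hardly detected outputs and the lectin genes next to Clec12a were named after their values were seen. So were the called osteoclast markers and the lower macrophage markers. Transcripts were compared with BLAST 2.17.0 (at least 95% identity over 100 bases). Coding sequences were aligned with Biopython 1.88. As alternatives, scaling used library size only, upper quartiles or the size factors of DESeq2, and the filter was dropped or set to 10 counts in each library. Other tests were limma-voom (limma 3.58.1), the exact test of edgeR, the Wald test of DESeq2 1.42.0, a replicate block, limma on log2(FPKM + 0.01) and log2(FPKM + 1), and each library left out. For called genes of the other lists these alternatives were added after the data were seen.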

Additional observations from a re-analysis of the deposited data

How the results depend on the processing

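Over 15 alternatives for each of the 10 receptors, 141 of 150 values kept their direction and their side of an adjusted p of 0.05. The count of called receptors was 5, between 4 and 5 when each library was left out, 6 with library size only, where Clec4a2 joined at an adjusted p of 0.0203 (range 0.0203 to 0.604), and 3 with log2(FPKM + 0.01), where Clec4d (adjusted p = 0.0643, range 9.99e-14 to 0.0643) and Clec4e (0.0685) were lost in limma's test. Clec4n, Clec7a and Clec12a were called in all 15. The log2 fold change of Clec4a1, 0.02 in the main test, was -0.0788 with library size only, -0.0788 with log2(FPKM + 0.01) and -0.0759 with log2(FPKM + 1). The FPKM values are likewise scaled by the library total, without TMM factors. Library size only moved the median of all tested genes from 0.00117 to -0.102, and log2(FPKM + 0.01) moved it to -0.101. Directions of small changes are therefore relative to this median.

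Over all genes, 1868 were called, against 1087 to 1394 with a library left out and 645 with log2(FPKM + 0.01). The split of 899 higher and 969 lower was 549 and 1930 with library size only, 171 and 474 with log2(FPKM + 0.01), and 444 and 1467 with log2(FPKM + 1). All of these settings scale by the library total, so they are not separate checks of the split. The 5 called genes among other lectins became 1 to 2 with any library left out, 2 with log2(FPKM + 0.01) and 3 with log2(FPKM + 1). The 7 called signalling genes became 2 to 6 with a library left out, 4 with the DESeq2 Wald test, 3 with edgeR's exact test and 1 with log2(FPKM + 0.01). The 1 called output gene became 0 to 2 with a library left out (0 without RANKL+DMSO replicate 1), and 2 with library size only and with edgeR's exact test. The cause was not tested.

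The replicate numbers are not known to pair the libraries, and the deviations of libraries with the same number had a correlation of -0.0501. With the replicate number as a block, the called signalling genes went from 7 to 3, and the called receptors were still 5. With 2 libraries in a group, a change of the size of that of Clec10a could not be told from 0 at its depth of 33 to 56 counts.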
